A study of Mus musculus with 8 samples.

Results

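Mdm2, its partner Trp53 and 8 genes that p53 is known to switch on were followed in 3T3-L1 mouse cells grown as spheroids or flat, with or without induction of fat cell differentiation. The genes were chosen by symbol: Mdm2, Trp53, Cdkn1a, Eda2r, Ccng1, Zmat3, Phlda3, Trp53inp1, Sesn2 and Gdf15. Each matched 1 Ensembl gene, so they are 10 of the 49585 genes in the count file and 10 of the 15255 that had enough counts to be tested. Mdm2 was chosen for its high count and the others for their link to it, with earlier results of these data known. The rank, share and level of Mdm2 are therefore a description with no test, and the p-values of all 10 genes are not independent evidence of a response.

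RNA was sequenced on day 7 from 4 groups of 2 independently prepared samples. The 3D induced and 3D uninduced cultures were hanging-drop spheroids seeded with 20000 cells in 28 µL, and the 2D induced and 2D uninduced cultures grew on flat dishes. Induced cultures of both formats received 10 µM troglitazone (an activator of PPARγ) and 1 µg/ml insulin throughout, with 250 nM dexamethasone (a glucocorticoid) and 10 nM triiodothyronine (a thyroid hormone) in the first 2 days. Uninduced cultures received none of these 4 agents. All groups shared a high-glucose medium with calf serum and methylcellulose. 3T3-L1 is an established preadipocyte line derived from mouse embryo fibroblasts, so all samples come from 1 immortal line, and the labels do not say how many spheroids made up a sample.

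The transcription factor p53, encoded by Trp53 in the mouse, is made continuously and destroyed continuously. Mdm2 is the ubiquitin ligase that binds p53, blocks its activity and marks it for the proteasome, and Mdm2 is itself a p53 target gene, so the pair forms a negative feedback loop. When DNA damage or another stress frees p53 from Mdm2, it binds a pair of half-sites near its target genes and raises their transcription, which stops the cell cycle, drives cell death or adjusts metabolism. Because p53 is mostly controlled at the protein level, Trp53 RNA does not report its activity. No protein was measured here.

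The promoter sequences of 5 of the genes are shown because they carry the letters that p53 reads, or, for Eda2r, because it was called in the most comparisons and its window has no such match. Each is the RefSeq window on GRCm38.p6 from 250 bases before to 50 bases after the annotated start, 5′ to 3′ on the gene's own strand, with every match to the 10-letter p53 half-site consensus in capitals. The consensus equals its own reverse complement, so a search of 1 strand covers both.

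Mdm2, chr10:117710709-117711008, minus strand: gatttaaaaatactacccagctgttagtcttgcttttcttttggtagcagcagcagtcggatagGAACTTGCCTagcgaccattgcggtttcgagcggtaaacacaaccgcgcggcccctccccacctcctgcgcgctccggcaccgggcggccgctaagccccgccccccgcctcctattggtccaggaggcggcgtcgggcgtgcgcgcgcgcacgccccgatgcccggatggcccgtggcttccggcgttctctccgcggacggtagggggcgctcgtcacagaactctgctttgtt

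Trp53, chr11:69580109-69580408, plus strand: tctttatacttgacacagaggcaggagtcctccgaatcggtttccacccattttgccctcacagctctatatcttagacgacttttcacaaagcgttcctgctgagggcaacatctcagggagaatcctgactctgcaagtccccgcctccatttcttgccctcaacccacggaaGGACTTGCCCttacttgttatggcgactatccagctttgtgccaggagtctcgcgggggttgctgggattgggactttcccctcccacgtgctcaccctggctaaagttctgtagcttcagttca

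Cdkn1a, chr17:29090729-29091028, plus strand: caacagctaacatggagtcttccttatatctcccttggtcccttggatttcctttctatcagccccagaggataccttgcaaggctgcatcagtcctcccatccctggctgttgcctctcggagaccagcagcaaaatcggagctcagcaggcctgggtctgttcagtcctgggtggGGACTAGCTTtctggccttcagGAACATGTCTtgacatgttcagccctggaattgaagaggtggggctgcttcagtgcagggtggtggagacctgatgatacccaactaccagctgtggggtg

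Ccng1, chr11:40755237-40755536, minus strand: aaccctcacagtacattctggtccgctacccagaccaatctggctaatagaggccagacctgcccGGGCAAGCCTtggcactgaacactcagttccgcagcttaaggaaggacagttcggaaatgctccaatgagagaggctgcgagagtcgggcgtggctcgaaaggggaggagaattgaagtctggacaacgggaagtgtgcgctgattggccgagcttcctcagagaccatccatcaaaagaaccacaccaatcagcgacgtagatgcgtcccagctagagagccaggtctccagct

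Eda2r, chrX:97377160-97377459, minus strand: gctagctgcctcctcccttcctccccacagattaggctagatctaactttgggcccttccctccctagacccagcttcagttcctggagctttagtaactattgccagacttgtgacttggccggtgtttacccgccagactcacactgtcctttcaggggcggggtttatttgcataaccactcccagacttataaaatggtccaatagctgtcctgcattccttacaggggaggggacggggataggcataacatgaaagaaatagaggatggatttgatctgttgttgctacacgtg

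A half-site was found in 4 of the 8 genes with a window: Mdm2 at 186 bases before the start, Trp53 at 75, Cdkn1a at 73 and at 51, and Ccng1 at 185. Cdkn1a has 2 annotated starts in the table; the window shown is that of the upstream one, and the window of the other holds no match. The windows of Eda2r, Phlda3, Sesn2 and Gdf15 held none. Among all 32851 RefSeq mouse windows of this length 8.36% held at least 1 match, and 9.55% of the 27025 gene symbols had such a window. Zmat3 and Trp53inp1 had no window in the table. A match to these letters is not evidence of binding, and its lack in a short window says nothing about the gene. The best known p53 elements of Mdm2 lie in its first intron, outside the window shown.

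The libraries held 11839374 to 21169390 counts. Adipocyte markers followed the induction labels. The summed level of 6 adipocyte markers was 1037 to 2054 CPM (counts per 1000000 of the TMM-scaled library size) in 3D induced, 70.3 to 78.7 CPM in 3D uninduced, 5116 to 5574 CPM in 2D induced and 35.0 to 38.0 CPM in 2D uninduced cultures. The 6 fibroblast and preadipocyte markers summed to 4431 to 14581 CPM, 11130 to 12872 CPM, 21711 to 22218 CPM and 34580 to 35275 CPM in the same order of groups, so in spheroids they did not separate induced from uninduced cultures. Macrophage markers summed to 11.8 to 24.8 CPM with Ptprc, Adgre1 and C1qa at 0 in all 8 libraries, endothelial markers to at most 1.99 CPM and epithelial markers to at most 3.84 CPM. Mitochondrially encoded transcripts took 1.57 to 2.25% of the counts in spheroids, and 0.303 to 0.343% in flat cultures. The pair of 3D induced libraries was the least alike: 2159 tested genes lay 2-fold or more apart in it, where 380 to 561 did so in the pairs of the other groups. Replicate 2 also had 1.13% of its counts in Gm26917 and Gm42418, a pair of ribosomal RNA-linked transcripts that took 0.106 to 0.279% elsewhere. For the values that moved most without one of this pair, the fits without replicate 1 and without replicate 2 are given beside them, and the part of these libraries beyond that was not tested.

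Mdm2 (ENSMUSG00000020184, chr10:117688875-117710758, minus strand, 5083 bases of exon) was among the most counted genes of every library. It took 0.658% and 1.01% of all counts in 3D induced spheroids, where its rank was 4 and 1. In 3D uninduced spheroids it took 0.741% and 0.655%, with ranks 1 and 2. In 2D induced cultures it took 0.454% and 0.464% and ranked 6 in both libraries, and in 2D uninduced cultures 0.404% and 0.401%, ranking 11 in both. The mean share was 0.834 ± 0.249% in 3D induced, 0.698 ± 0.0610% in 3D uninduced, 0.459 ± 0.00717% in 2D induced and 0.403 ± 0.00200% in 2D uninduced cultures (SD, n = 2 each). Every spheroid library thus exceeded every flat one. The counting error on a share is small, since Mdm2 had 53712 to 165538 counts per library; the widest exact 95% binomial interval, in 3D induced replicate 2, was 1.005 to 1.015%, and it covers counting error only.

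**Figure D1:**
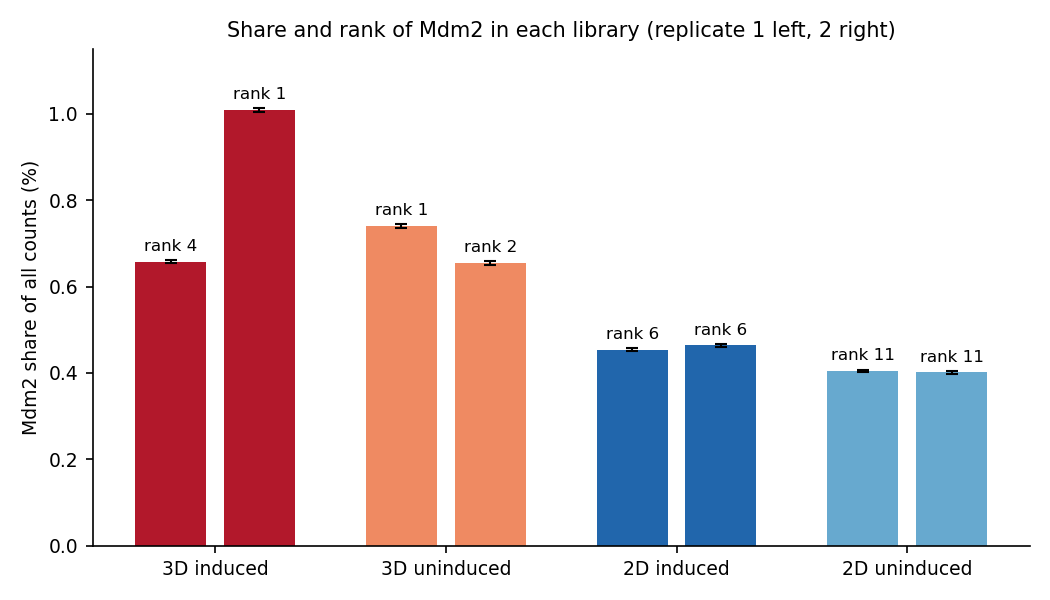
Share of all counts taken by Mdm2 in each library (vertical axis, percent, from 0), with its rank among all genes above each bar and the exact 95% binomial interval as the error bar. The 4 spheroid libraries lie between 0.655% and 1.01%, all above the 4 flat libraries at 0.401% to 0.464%.

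The genes counted more often than Mdm2 show which transcripts it stood beside. No gene had more counts in 3D induced replicate 2 and in 3D uninduced replicate 1. In the other 2 spheroid libraries, only the collagen genes Col1a2 and Col3a1 and the mitochondrial gene mt-Co1 were above it. In 2D induced cultures it was preceded by the collagen genes Col1a1, Col3a1 and Col1a2, the ferritin gene Fth1 and the translation factor gene Eef1a1. In 2D uninduced cultures Fn1, Ptn, Bgn, Mmp2 and Dlk1 were above it as well. A raw count grows with transcript length. Per kilobase of exon, Mdm2 had rank 13 and rank 10 in 3D induced, rank 8 and rank 13 in 3D uninduced, rank 27 and rank 24 in 2D induced, and rank 34 and rank 32 in 2D uninduced libraries. It exceeded at least 99.5 to 99.7% of the tested genes per kilobase in each group. Tested genes without an annotated exon length were counted as not exceeded, so these percentages are lower bounds. The other 9 genes together took 0.0764 to 0.114% of the counts, so Mdm2 alone held most of what the 10 genes had.

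Mdm2 was higher in spheroids than in flat cultures, by less than 2-fold. Its level was 6350 and 9687 CPM in 3D induced, 6868 and 6184 CPM in 3D uninduced, 4798 and 4904 CPM in 2D induced, and 4259 and 4240 CPM in 2D uninduced cultures. The spheroid libraries lay above the flat ones in both comparisons of format, and the 2D groups did not overlap, whereas the 3D induced pair overlapped the 3D uninduced pair. The log2 fold change of spheroids over flat cultures was 0.73 ± 0.21 with induction (SE, edgeR adjusted p = 0.035) and 0.62 ± 0.21 without it (edgeR adjusted p = 0.0705). Both stayed under the 2-fold threshold, as did every alternative fit. With induction the value hinged on the 3D induced libraries, and leaving out replicate 1 gave 1.00 and leaving out replicate 2 gave 0.39. Without induction, the format difference had an adjusted p of 2.04e-05 with limma-voom and group weights, which let the 3D induced group vary more than the others, and 0.0162 with DESeq2. In edgeR the adjusted p was 0.0733 with RLE scaling and 0.0917 with a replicate block. It was under 0.05 in only 6 of the 14 alternative fits.

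In the edgeR test over all libraries, induction moved Mdm2 beyond the threshold in neither format. The log2 fold change was 0.30 ± 0.21 in spheroids (edgeR adjusted p = 0.652) and 0.19 ± 0.21 in flat cultures (edgeR adjusted p = 0.631). In flat cultures the adjusted p was 0.027 with limma-voom and group weights, and 6.82e-05 in edgeR with these 2 groups only, at the same size of 0.19. Of the 14 alternative fits only these 2 were under 0.05. The adjusted p was 0.733 with DESeq2 and 0.66 in edgeR with a replicate block. Leaving out 3D induced replicate 2 turned the spheroid value to −0.04, and leaving out replicate 1 took it to 0.57 (edgeR adjusted p = 0.837 and 0.000318). The difference between the inductions, spheroids minus flat, was 0.11 ± 0.29 on the log2 scale (edgeR adjusted p = 0.979), with 0.38 when 3D induced replicate 1 was left out and −0.23 when replicate 2 was. Relative to Trp53 per kilobase, Mdm2 stood 51.6 and 74.8 times higher in 3D induced, 46.4 and 45.0 times higher in 3D uninduced, 72.0 and 73.9 times higher in 2D induced, and 46.1 and 49.1 times higher in 2D uninduced libraries. The ratio was thus close to equal in the uninduced groups of both formats, since Trp53 was also higher in spheroids.

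The genes around Mdm2 on chromosome 10 were read to see whether its level was shared along the chromosome. Within 1 megabase of its start, 28 genes of the count file were annotated, 20 of them protein-coding, and 11 passed the filter on low counts. Slc35e3, which encodes a member of a nucleotide sugar transporter family and starts 35607 bases from Mdm2 on the same strand (chr10:117733679-117746365), was the one with a like level. It had 2110 and 3753 CPM in 3D induced, 2650 and 2820 CPM in 3D uninduced, 1610 and 1693 CPM in 2D induced, and 1760 and 1787 CPM in 2D uninduced cultures. Over the 8 libraries it averaged 645 CPM per kilobase, above at least 99.5% of tested genes, beside 1163 CPM per kilobase for Mdm2. The ratio of Mdm2 to Slc35e3 per kilobase stayed between 1.52 and 2.09.

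Slc35e3 was likewise higher in every spheroid library than in every flat one, but lay lower in induced than in uninduced flat cultures, where Mdm2 lay higher. Its log2 fold change in spheroids over flat cultures was 0.83 ± 0.24 with induction (edgeR adjusted p = 0.0385) and 0.62 ± 0.24 without (edgeR adjusted p = 0.106), and induction gave 0.10 ± 0.24 in spheroids and −0.10 ± 0.24 in flat cultures (edgeR adjusted p = 0.928 and 0.844). With induction the format difference was 1.18, past the 2-fold threshold, without 3D induced replicate 1, and 0.35 without replicate 2 (edgeR adjusted p = 6.08e-08 and 0.00346). Induction in spheroids was then 0.46 and −0.37 (edgeR adjusted p = 0.000981 and 0.0107). The other tested neighbours were far lower. The chaperonin gene Cct2 averaged 141 CPM per kilobase and the small GTPase gene Rap1b 65.1 CPM per kilobase, followed by Yeats4 at 24.0, Nup107 at 11.7, Frs2 at 11.3, Cpsf6 at 8.15, Rab3ip at 6.51, Mdm1 at 2.82, Lyz2 at 1.55 and Cpm at 1.12 CPM per kilobase. The nearest tested gene on the other side of Mdm2, the carboxypeptidase gene Cpm, was thus at the low end. Yet 3D induced replicate 2 had 32.9 CPM of it, where replicate 1 had 3.45 CPM and 3D uninduced libraries had 6.12 and 4.80 CPM. The protein-coding neighbours Myrfl, Gm10271, Best3, Lrrc10, 9530003J23Rik, Lyz1, Il22, Iltifb and Ifng were under the filter. Among the tested genes of this window, only Mdm2 and Slc35e3 exceeded 99% of tested genes per kilobase. A higher level in spheroids was not limited to this pair. Without induction, every tested neighbour but Lyz2 had a positive log2 fold change over flat cultures, with 1.10 ± 0.23 for Mdm1 (edgeR adjusted p = 0.014). With induction, all but Lyz2, Cct2 and Nup107 did. Cpsf6 then gave 0.71 ± 0.11 and Cpm 3.11 ± 0.93 (edgeR adjusted p = 0.00392 and 0.0409). Several of the positive values were small, with overlapping libraries. Cct2 gave 0.14 without induction, and Yeats4, Rab3ip and Rap1b gave 0.05, 0.10 and 0.23 with it. The median of all tested genes was 0.03 in both comparisons, and the share of all tested genes with a positive value was not counted. The Mdm1 call was lost in some fits that left out 1 library, with values from 0.94 to 1.27. The Cpm call was lost in most of those fits, with values from 0.70 to 3.94. It was also lost with limma-voom and group weights, without a filter on low counts, with a replicate block and with the induced groups only. DNA copy number was not measured.

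**Figure D2:**
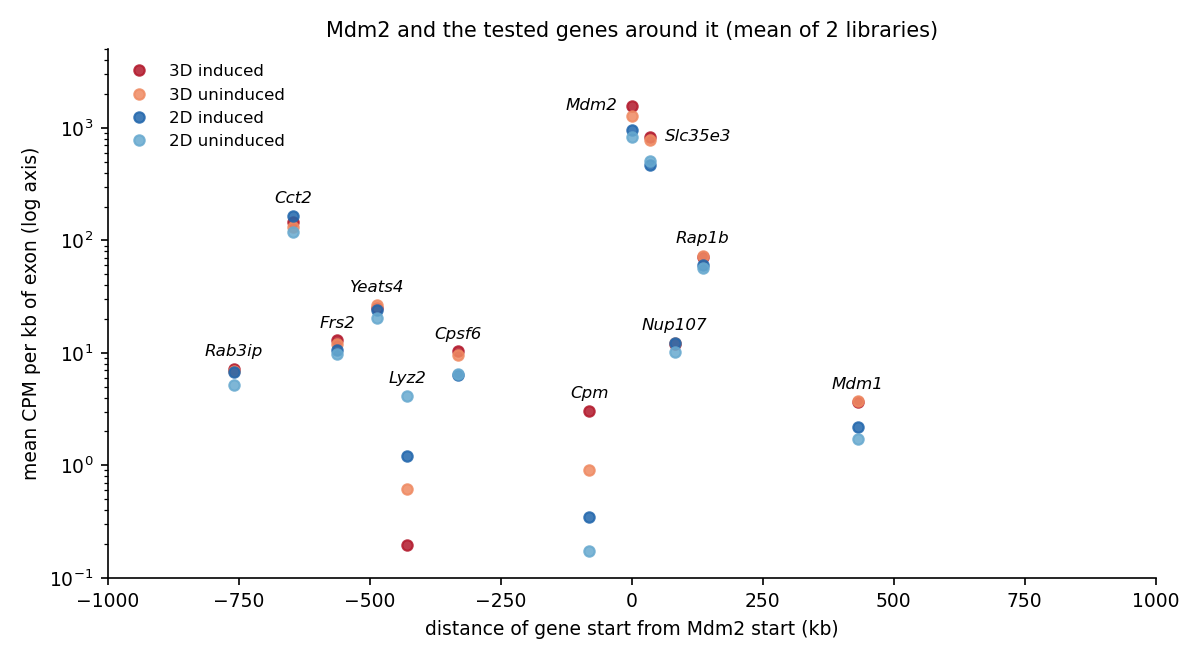
Mean level of Mdm2 and the 11 tested genes within 1 megabase (vertical axis, CPM per kilobase of exon, log scale, mean of 2 libraries per group) against the distance of each gene's start from that of Mdm2 (horizontal axis, kilobases). Mdm2 and Slc35e3 stand together at the top in all 4 groups, and Cct2 comes next.

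A mean log2 CPM of 1 or more was reached by 11102 tested genes other than Mdm2. Genes without a symbol and those with a Gm or Rik symbol were left out of this number. The 5 whose log2 CPM followed Mdm2 most closely over the 8 libraries included Nop58 (Pearson r = 0.993) and Noc3l (r = 0.990). Both encode nucleolar proteins of ribosome assembly. The others were the spliceosome helicase gene Ddx23 (r = 0.993), the choline kinase gene Chka (r = 0.992) and Nr2c2ap (r = 0.989). Nop58 had 99.1 and 142 CPM in 3D induced, 104 and 93.4 CPM in 3D uninduced, 78.3 and 77.1 CPM in 2D induced, and 66.6 and 62.3 CPM in 2D uninduced cultures. Like Mdm2, it was highest in 3D induced replicate 2 and higher in each spheroid library than in each flat one. Slc35e3 came 322nd with r = 0.924 and Trp53 1927th with r = 0.719. Of the 7 target genes with a mean above that limit, none passed r = 0.389, the value of Cdkn1a, and 4 had a negative r, the lowest being −0.754 for Zmat3. These are descriptions of 8 libraries in 4 groups, with no test.

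Across all 10 genes, the calls were few and lay in 2 genes. A gene was called where the edgeR quasi-likelihood test gave an adjusted p under 0.05 and the change was at least 2-fold. Induction in spheroids called 0 of the 10 genes, where 0.911% of all tested genes were called. At the adjusted p alone it passed 0 of 10 against 1.36%, and DESeq2 and limma-voom called 0 as well. At an unadjusted p under 0.05, 4 of the 10 passed in the edgeR test, Cdkn1a, Eda2r, Trp53inp1 and Sesn2, each with a positive log2 fold change, where 12.4% of all tested genes passed in either direction and 6.96% with a positive one. Induction in flat cultures called 1 of 10, Eda2r, which fell, against 4.52% of all tested genes. With induction, spheroids over flat cultures called 1 of 10, Eda2r, which rose, against 12.4%. Without induction they called 1 of 10, Trp53inp1, which fell, against 9.44%. The test of whether induction differed between the formats called 1 of 10, again Eda2r, against 0.38%. The comparisons share groups of libraries, so these are not separate lines of evidence.

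In none of the comparisons did all 10 genes change in 1 direction. Induction gave 9 positive and 1 negative log2 fold changes in spheroids, and 3 and 7 in flat cultures. Spheroids over flat cultures gave 7 and 3 with induction, and 3 and 7 without. Under the adjusted p alone, without a minimum fold, induction in flat cultures lowered 4 of the 10 genes, Eda2r, Trp53inp1, Zmat3 and Trp53, and raised 0, against 2.97% of all tested genes lower and 5.91% higher. Spheroids over flat cultures without induction had 5 of 10 lower, Eda2r, Trp53inp1, Zmat3, Ccng1 and Sesn2, against 10.2%, and 1 higher, Trp53, against 10.9%. With induction, 3 of 10 were higher, Mdm2, Trp53 and Eda2r, against 14.7%, and 0 lower, against 14%. Both of these lower counts are measured against the same 2D uninduced libraries. These differences vary in firmness. For induction in flat cultures the adjusted p stayed under 0.05 in 11 of 14 alternative fits for Eda2r, 8 for Trp53inp1, 8 for Zmat3 and 6 for Trp53. For spheroids over flat cultures without induction it did so in 12 for Trp53, Trp53inp1 and Zmat3, 11 for Sesn2, 10 for Ccng1 and 8 for Eda2r, and with induction in 14 for Trp53 and Eda2r and in 6 for Mdm2. The median log2 fold change of the 10 genes was 0.34 for induction in spheroids, where that of all tested genes was 0.04, and −0.38 for induction in flat cultures, where it was 0.00. It was 0.39 against 0.03 for spheroids over flat cultures with induction, and −0.52 against 0.03 without.

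**Figure D3:**
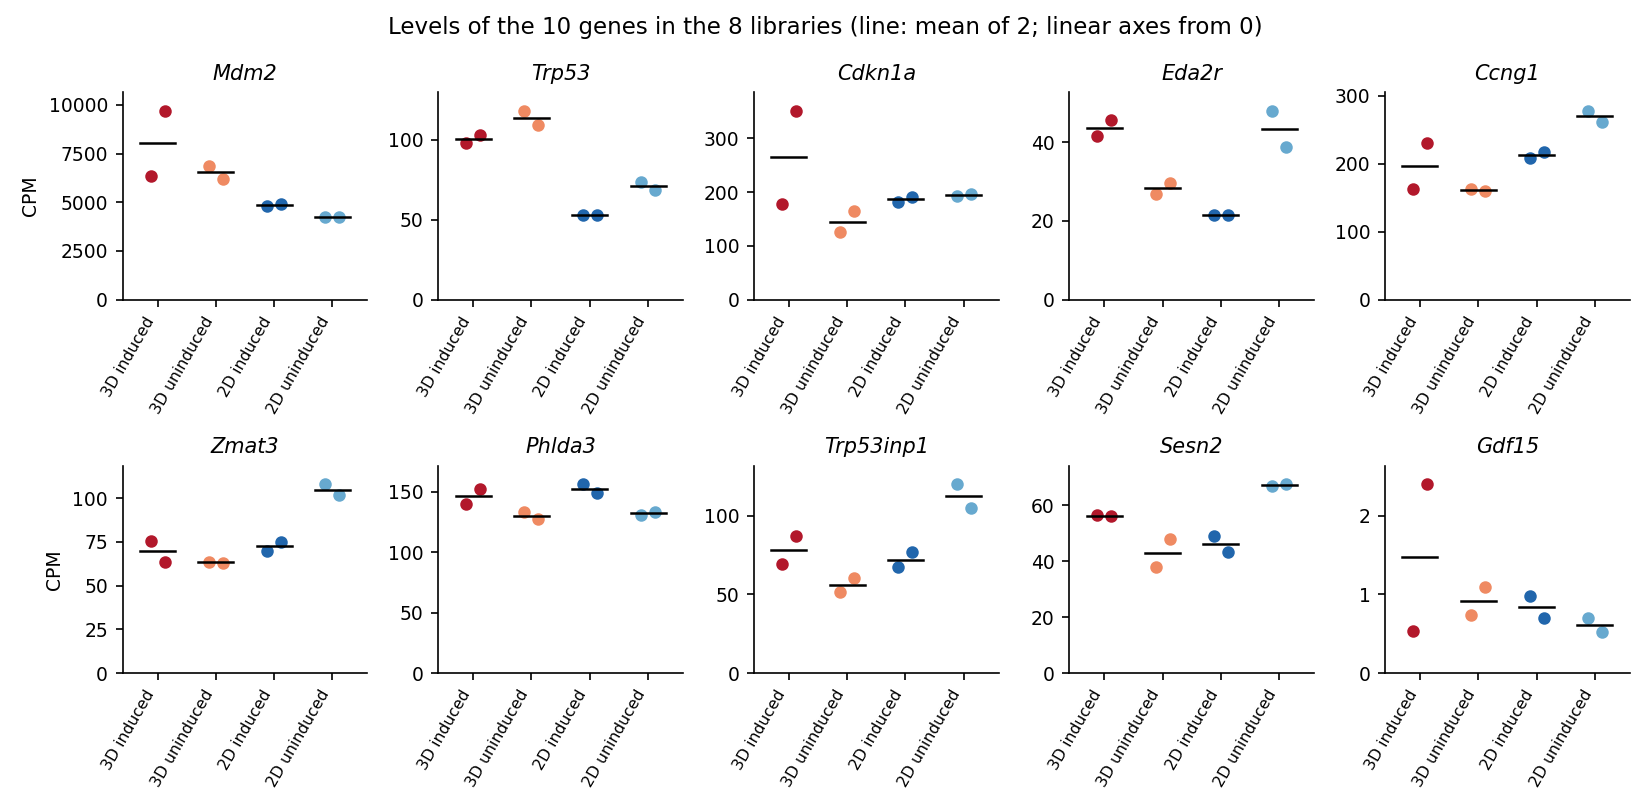
Level of each of the 10 genes in the 8 libraries (vertical axes, CPM of the TMM-scaled library size, linear and from 0, a scale of its own for each gene), with points for the libraries, replicate 1 left of replicate 2, and a line for the mean of 2. Mdm2 and Trp53 are higher in spheroids, while Ccng1, Zmat3, Trp53inp1 and Sesn2 are highest in 2D uninduced cultures.

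Trp53 (ENSMUSG00000059552, chr11:69580359-69591873, plus strand), the gene of p53 itself, was higher in spheroids. It had 97.9 and 103 CPM in 3D induced, 118 and 109 CPM in 3D uninduced, 53.1 and 52.8 CPM in 2D induced, and 73.5 and 68.7 CPM in 2D uninduced cultures. No pair of groups overlapped in any of the 4 comparisons. The log2 fold change of spheroids over flat cultures was 0.93 ± 0.10 with induction (edgeR adjusted p = 0.00118) and 0.68 ± 0.10 without (edgeR adjusted p = 0.00426). Both stayed under the 2-fold threshold. Induction in flat cultures gave −0.43 ± 0.10 (edgeR adjusted p = 0.0413), and in spheroids −0.18 ± 0.10 (edgeR adjusted p = 0.554). The inductions differed by 0.25 ± 0.14 (edgeR adjusted p = 0.764).

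Cdkn1a (ENSMUSG00000023067, chr17:29090976-29100727, plus strand) encodes p21, the inhibitor of cyclin-dependent kinases through which p53 halts the cell cycle. It had 178 and 351 CPM in 3D induced, 126 and 165 CPM in 3D uninduced, 182 and 192 CPM in 2D induced, and 193 and 197 CPM in 2D uninduced cultures. Its 3D induced libraries differed 1.97-fold from each other, and replicate 2 alone lay above all other libraries. Induction in spheroids gave a log2 fold change of 0.87 ± 0.28 (edgeR adjusted p = 0.237). It was 1.27 when 3D induced replicate 1 was left out and 0.29 when replicate 2 was (edgeR adjusted p = 2.89e-05 and 0.177). The difference of the inductions was 0.93 ± 0.40 with all libraries (edgeR adjusted p = 0.636), 1.33 without 3D induced replicate 1 and 0.35 without replicate 2 (edgeR adjusted p = 0.000524 and 0.188). Flat cultures showed −0.06 ± 0.28 with induction (edgeR adjusted p = 0.923). Spheroids over flat cultures gave 0.50 ± 0.28 with induction and −0.42 ± 0.28 without (edgeR adjusted p = 0.213 and 0.322), and with induction the flat libraries lay within the spheroid range. That value was 0.91 when 3D induced replicate 1 was left out and −0.07 when replicate 2 was (edgeR adjusted p = 0.000131 and 0.682).

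Eda2r (ENSMUSG00000034457, chrX:97333840-97377216, minus strand), a receptor of the tumor necrosis factor family that binds ectodysplasin A2, had the largest log2 fold change of the 10 genes with induction in flat cultures, in spheroids over flat cultures with induction and in the difference of the inductions. Other members exceeded it in the remaining comparisons. It had 41.6 and 45.6 CPM in 3D induced, 26.8 and 29.7 CPM in 3D uninduced, 21.5 and 21.5 CPM in 2D induced, and 47.9 and 38.8 CPM in 2D uninduced cultures. Induced spheroids therefore lay above uninduced ones, while induced flat cultures lay below uninduced ones, with no overlap in either format. Induction in flat cultures lowered Eda2r to 21.5 ± 0.0273 CPM, against 43.4 ± 6.45 CPM without induction (SD, n = 2 each), a log2 fold change of −1.01 ± 0.14 (edgeR adjusted p = 0.00572). In spheroids the change was 0.62 ± 0.14 (edgeR adjusted p = 0.0949). The difference between the inductions was 1.64 ± 0.20 on the log2 scale (edgeR adjusted p = 0.0255). With induction, spheroids exceeded flat cultures by 1.02 ± 0.14 (edgeR adjusted p = 0.00279), and without induction they gave −0.62 ± 0.14 (edgeR adjusted p = 0.0212), which was below 2-fold.

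The Eda2r calls between 2 groups sat close to the 2-fold line, at 2.02-fold and 2.03-fold, while the difference of the inductions was 3.11-fold. All 3 were lost in at least 1 fit that left out a library. The fall with induction in flat cultures had an adjusted p of 0.0678 (log2 fold change −0.89) without 2D uninduced replicate 1, 0.0695 without 2D induced replicate 1 and 0.0711 without 2D induced replicate 2. The rise in induced spheroids over induced flat cultures was 0.95, under 2-fold, without 3D induced replicate 2. The difference between the inductions kept its size, from 1.50 to 1.80, in the 8 fits that left out 1 library. Its adjusted p was 0.178 and 0.152 without 2D uninduced replicates 1 and 2, 0.228 and 0.229 without 2D induced replicates 1 and 2, and 0.174 and 0.131 without 3D uninduced replicates 1 and 2, and of these 8 fits it passed only in those without 3D induced replicate 1 or 2 (2.88e-05 and 4.22e-05). The fit with a replicate block gave an adjusted p of 0.0532. The gene of its ligand, Eda, one of whose splice forms binds the receptor, was lower in induced spheroids. It had 12.4 and 6.67 CPM in 3D induced, against 29.2 and 29.4 CPM in 2D induced cultures, a log2 fold change of −1.63 ± 0.27 (edgeR adjusted p = 0.00477).

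**Figure D4:**
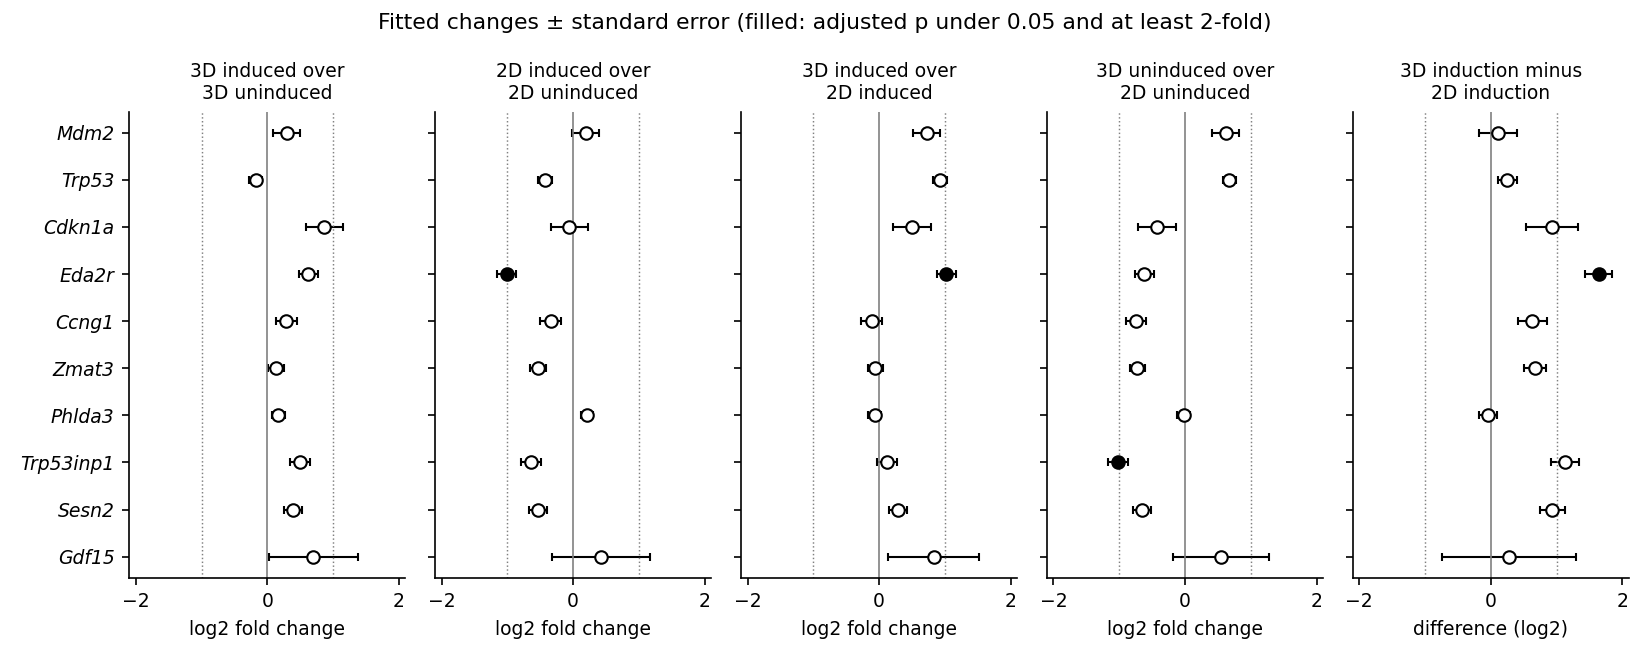
Fitted log2 fold change (points) and its standard error (bars) for the 10 genes in the 4 comparisons, and the difference of the inductions in the last panel. Filled points passed the adjusted p of 0.05 and the 2-fold threshold (dotted lines), which only Eda2r did in 3 panels and Trp53inp1 in 1.

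Ccng1, Zmat3, Trp53inp1 and Sesn2 shared a pattern in which 2D uninduced cultures had the highest level of the 4 groups. Ccng1 (ENSMUSG00000020326, chr11:40748552-40755311, minus strand) encodes cyclin G1, which recruits a phosphatase to Mdm2. It had 164 and 230 CPM in 3D induced, 163 and 159 CPM in 3D uninduced, 209 and 218 CPM in 2D induced, and 278 and 262 CPM in 2D uninduced cultures. Spheroids over flat cultures without induction gave a log2 fold change of −0.75 ± 0.16 (edgeR adjusted p = 0.0157), and with induction −0.11 ± 0.16 (edgeR adjusted p = 0.619), where the libraries overlapped. Induction gave 0.29 ± 0.16 in spheroids (edgeR adjusted p = 0.533) and −0.34 ± 0.16 in flat cultures (edgeR adjusted p = 0.242), a difference of 0.63 ± 0.22 (edgeR adjusted p = 0.516). Without 3D induced replicate 1 the value in spheroids was 0.52 and without replicate 2 it was 0.02 (edgeR adjusted p = 0.00024 and 0.902), and spheroids over flat cultures with induction gave 0.11 and −0.38 in those fits (edgeR adjusted p = 0.27 and 0.0018).

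Zmat3 (ENSMUSG00000027663, chr3:32334792-32366014, minus strand) encodes a zinc finger protein that binds RNA. It had 75.8 and 63.7 CPM in 3D induced, 63.7 and 63.3 CPM in 3D uninduced, 70.0 and 75.1 CPM in 2D induced, and 108 and 102 CPM in 2D uninduced cultures. The first 3 groups lay within 63.3 to 75.8 CPM, and only 2D uninduced cultures stood above them. The log2 fold change was −0.53 ± 0.12 with induction in flat cultures (edgeR adjusted p = 0.0324) and −0.72 ± 0.12 in spheroids over flat cultures without induction (edgeR adjusted p = 0.00593). Induction in spheroids gave 0.14 ± 0.12 (edgeR adjusted p = 0.738), and spheroids over flat cultures with induction gave −0.06 ± 0.12 (edgeR adjusted p = 0.748), with overlapping libraries in both. The difference of the inductions was 0.67 ± 0.17 (edgeR adjusted p = 0.265).

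Trp53inp1 (ENSMUSG00000028211, chr4:11156431-11174379, plus strand) encodes a protein that promotes p53 activity and autophagy. It had 69.6 and 87.1 CPM in 3D induced, 51.4 and 60.2 CPM in 3D uninduced, 67.6 and 76.7 CPM in 2D induced, and 120 and 105 CPM in 2D uninduced cultures. Without induction it fell to 55.8 ± 6.23 CPM in spheroids, against 113 ± 10.4 CPM in flat cultures (SD, n = 2 each), a log2 fold change of −1.01 ± 0.15 (edgeR adjusted p = 0.00437). The call was lost without 2D uninduced replicate 1 (−0.93, edgeR adjusted p = 0.0517) and without 3D uninduced replicate 1 (−0.90, edgeR adjusted p = 0.0529). Induction gave −0.64 ± 0.15 in flat cultures (edgeR adjusted p = 0.0407) and 0.49 ± 0.15 in spheroids (edgeR adjusted p = 0.207). With induction, spheroids over flat cultures gave 0.12 ± 0.15 (edgeR adjusted p = 0.588), with overlapping libraries. The difference of these inductions was 1.13 ± 0.22 (edgeR adjusted p = 0.108), and it passed with DESeq2 (adjusted p = 0.00296), with limma-voom and group weights (adjusted p = 0.0442), without a filter on low counts (6.05e-05) and without 3D induced replicate 1 (1.28, edgeR adjusted p = 0.000151).

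Sesn2 (ENSMUSG00000028893, chr4:132492032-132510501, minus strand) encodes sestrin 2, a leucine sensor that restrains mTORC1 and is also switched on by amino acid shortage through ATF4. It had 56.4 and 56.2 CPM in 3D induced, 38.0 and 47.8 CPM in 3D uninduced, 48.9 and 43.4 CPM in 2D induced, and 66.9 and 67.5 CPM in 2D uninduced cultures. Induced spheroids lay above uninduced ones, and induced flat cultures lay below uninduced ones. The log2 fold change was −0.65 ± 0.14 in spheroids over flat cultures without induction (edgeR adjusted p = 0.0157). With induction in flat cultures it was −0.54 ± 0.14 (edgeR adjusted p = 0.05, just above the threshold before rounding), and in spheroids 0.39 ± 0.14 (edgeR adjusted p = 0.274). Spheroids over flat cultures with induction gave 0.29 ± 0.14 (edgeR adjusted p = 0.149). The difference of the inductions was 0.93 ± 0.19 (edgeR adjusted p = 0.147).

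Phlda3 and Gdf15 passed the edgeR test over all libraries in none of the comparisons. Phlda3 (ENSMUSG00000041801, chr1:135766119-135769136, plus strand) encodes a pleckstrin homology protein that inhibits AKT. It had 140 and 152 CPM in 3D induced, 133 and 127 CPM in 3D uninduced, 156 and 149 CPM in 2D induced, and 131 and 133 CPM in 2D uninduced cultures, the narrowest relative range of the 10 genes. Induced libraries lay above uninduced ones in both formats, by a log2 fold change of 0.17 ± 0.10 in spheroids and 0.21 ± 0.10 in flat cultures (edgeR adjusted p = 0.567 and 0.248). Spheroids over flat cultures gave −0.06 ± 0.10 with induction and −0.02 ± 0.10 without (edgeR adjusted p = 0.661 and 0.903), with overlapping libraries in both. The difference of the inductions was −0.04 ± 0.14 (edgeR adjusted p = 0.982).

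Gdf15 (ENSMUSG00000038508, chr8:70629393-70632456, minus strand) encodes a secreted stress hormone of the TGF-β superfamily. It had 0.541 and 2.40 CPM in 3D induced, 0.737 and 1.09 CPM in 3D uninduced, 0.983 and 0.700 CPM in 2D induced, and 0.697 and 0.528 CPM in 2D uninduced cultures, from 7 to 41 counts per library. The 41 counts were in 3D induced replicate 2, and the other 7 libraries had at most 15. Induction in spheroids gave a log2 fold change of 0.70 ± 0.68 (edgeR adjusted p = 0.772), which was 1.38 (edgeR adjusted p = 0.0457) without 3D induced replicate 1 and −0.75 without replicate 2. In flat cultures it gave 0.42 ± 0.75 (edgeR adjusted p = 0.784), a difference of 0.28 ± 1.02 (edgeR adjusted p = 0.984). Spheroids over flat cultures gave 0.83 ± 0.69 with induction and 0.55 ± 0.73 without (edgeR adjusted p = 0.397 and 0.628). The value with induction was 1.52 when 3D induced replicate 1 was left out and −0.61 when replicate 2 was (edgeR adjusted p = 0.0216 and 0.498). At this depth, changes of this size in Gdf15 could not be resolved.

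Per kilobase of exon, the 10 genes kept nearly the same order in every group. Mdm2 came first, at 1578 CPM per kilobase in 3D induced, 1284 in 3D uninduced, 954 in 2D induced and 836 in 2D uninduced cultures, and Phlda3 second, at 93.6, 83.4, 97.8 and 84.6 CPM per kilobase. Ccng1 and Cdkn1a followed, Cdkn1a first in 3D induced spheroids (74.4 and 56.1 CPM per kilobase) with overlapping libraries, and Ccng1 first elsewhere. Their order in 3D uninduced spheroids rested on 45.9 and 40.9 CPM per kilobase, and those libraries overlapped as well. Trp53 was 5th in both spheroid groups, at 24.8 and 28.1 CPM per kilobase, and 6th in both flat groups, at 13.1 and 17.6 CPM per kilobase, where it overlapped Sesn2 in 2D induced and Trp53inp1 in 2D uninduced cultures. Zmat3 and Eda2r held ranks 8 and 9, with Eda2r ahead only in 3D induced spheroids, and Gdf15 was last in every group. The median tested gene had 5.6 to 6.0 CPM per kilobase. Eda2r lay above at least 39.2 to 57.4% of tested genes, Cdkn1a above 91.8 to 95.7% and Phlda3 above 95.8 to 96.9%. Tested genes without an annotated exon length were counted as not below them.

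The 8 target genes were set beside 38 further known p53 targets, of which 35 were tested. The cell death gene Perp, the arrest gene Rprm and Pmaip1, which encodes NOXA, had 0 counts in all 8 libraries, which allows each up to 3 counts, or 0.142 to 0.253 CPM of the library totals. Induction in spheroids called 0 of the 35, and induction in flat cultures called 2 higher and 1 lower, where 0.911% and 4.52% of all tested genes were called. With induction, spheroids over flat cultures called 5 higher and 1 lower, and without it 4 higher and 1 lower, where 12.4% and 9.44% of all tested genes were called in the 2 comparisons. In all 8 fits that left out 1 library, 1 of the 3 calls for induction in flat cultures was made, 0 of the 6 for the formats with induction and 1 of the 5 without. The difference of the inductions called 0, against 0.38% of all tested genes. The median log2 fold change of the 35 was 0.13 for induction in spheroids, −0.10 for induction in flat cultures, 0.07 for spheroids over flat cultures with induction and −0.07 without, beside 0.04, 0.00, 0.03 and 0.03 over all tested genes. The 35 went both ways in each, with 23, 13, 22 and 14 of them positive in that order. For the 8 targets among the 10 genes these medians were 0.44, −0.44, 0.20 and −0.63. The 8 were chosen with such results known, and the lists were not compared by a test.

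**Figure D5:**
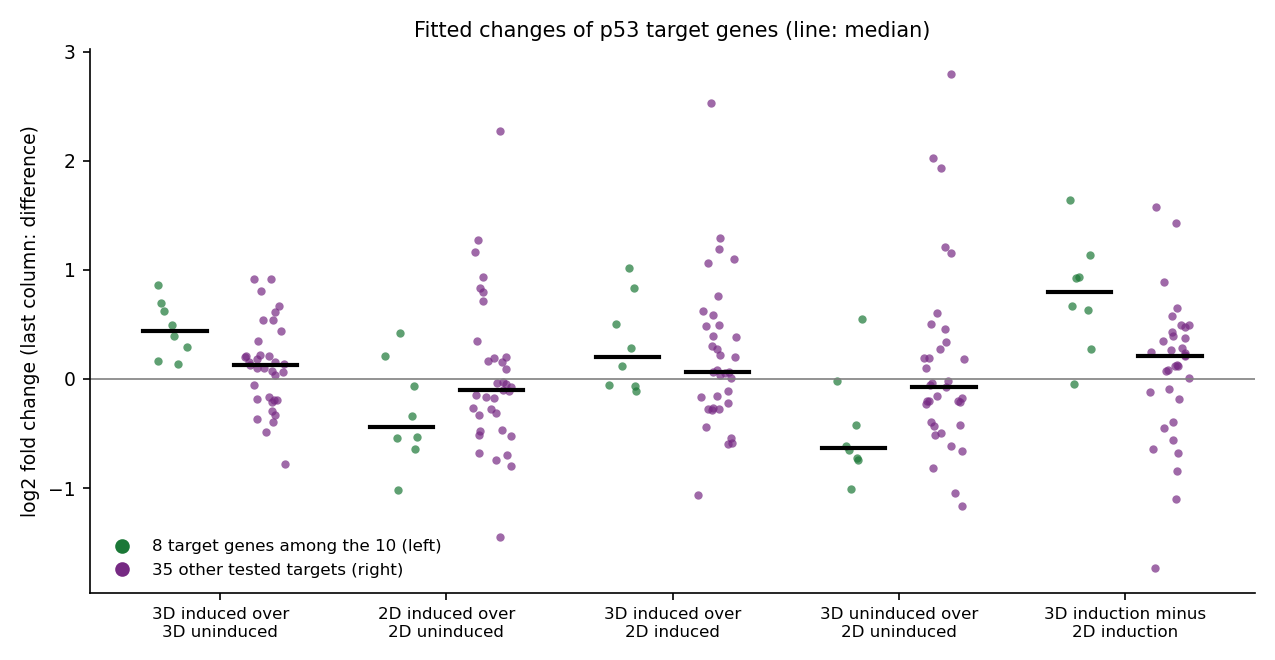
Fitted log2 fold change of the 8 target genes among the 10 (left points of each pair) and of the 35 other tested p53 targets (right points), with a line at each median, in the 4 comparisons and for the difference of the inductions. The other targets spread to both sides of 0 in all columns, with medians from −0.10 to 0.21.

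The called targets outside the 10 genes did different things. The receptor tyrosine kinase gene Epha2 had 19.1 and 58.9 CPM in 3D induced, 49.3 and 46.6 CPM in 3D uninduced, 5.99 and 7.49 CPM in 2D induced, and 12.5 and 10.9 CPM in 2D uninduced cultures. Its log2 fold changes in spheroids over flat cultures were 2.53 ± 0.47 with induction and 2.03 ± 0.45 without (edgeR adjusted p = 0.00767 and 0.0186), and the adjusted p reached 0.0721 and 0.131 when 1 library was left out.

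Arrest and death targets showed no common direction. The kinase gene Plk3 gave 1.29 ± 0.30 with induction and 1.21 ± 0.31 without in spheroids over flat cultures (edgeR adjusted p = 0.0165 and 0.0296, at most 0.123 and 0.195 with 1 library left out). Pidd1, which encodes the scaffold of the PIDDosome, gave 1.10 ± 0.31 and 1.94 ± 0.34 (edgeR adjusted p = 0.0348 and 0.00778, at most 0.188 and 0.0601). The microtubule-binding gene Psrc1 gave −1.16 ± 0.25 without induction (edgeR adjusted p = 0.0171, at most 0.119). Gadd45a, which encodes a growth arrest protein, had 89.1 and 98.7 CPM in 3D induced, 136 and 126 CPM in 3D uninduced, 69.2 and 64.5 CPM in 2D induced, and 109 and 108 CPM in 2D uninduced cultures. It was lower with induction in both formats, by −0.48 ± 0.11 in spheroids and −0.70 ± 0.11 in flat cultures (edgeR adjusted p = 0.0821 and 0.00738), under 2-fold in both. Bbc3, which encodes PUMA, and the apoptosome gene Apaf1 gave −0.82 ± 0.17 and −0.62 ± 0.15 in spheroids over flat cultures without induction (edgeR adjusted p = 0.0154 and 0.0269). The phospholipase gene Abhd4 gave −0.49 ± 0.11 in the same comparison (edgeR adjusted p = 0.022).

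Of 23 tested regulators of p53, induction in spheroids called 0 and induction in flat cultures called 1 higher, against 0.911% and 4.52% of all tested genes. The comparison of formats called 2 higher and 2 lower with induction, and 1 higher without, against 12.4% and 9.44%. Hipk2, a kinase that phosphorylates p53, had 86.1 and 101 CPM in 3D induced, 82.1 and 73.1 CPM in 3D uninduced, 107 and 102 CPM in 2D induced, and 36.3 and 37.5 CPM in 2D uninduced cultures. It rose with induction in flat cultures by 1.50 ± 0.12 (edgeR adjusted p = 0.000437), a call made in all 8 fits without 1 library, and gave 0.27 ± 0.12 in spheroids (edgeR adjusted p = 0.414). The difference of its inductions was −1.23 ± 0.17 (edgeR adjusted p = 0.0342), and its adjusted p reached 0.356 when 1 library was left out. Rpl11 and Rpl23, ribosomal proteins that can bind and inhibit Mdm2, were lower in spheroids. Rpl11 had 244 and 292 CPM in 3D induced, 253 and 246 CPM in 3D uninduced, 613 and 546 CPM in 2D induced, and 446 and 461 CPM in 2D uninduced cultures. Its log2 fold change in spheroids over flat cultures was −1.11 ± 0.12 with induction and −0.86 ± 0.12 without (edgeR adjusted p = 0.00127 and 0.00376), and Rpl23 gave −0.91 ± 0.11 without induction (edgeR adjusted p = 0.00223) and was just past 2-fold lower with it (edgeR adjusted p = 0.00122). With induction the Rpl23 call was made in 4 of the 8 fits without 1 library and was under 2-fold in the others, and Rpl11 gave −0.99 without 3D induced replicate 1.

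The locus Cdkn2a, whose products include the Mdm2 inhibitor p19Arf, and Mdm4, the close relative of Mdm2, are named for their role, after their values were seen. Cdkn2a had 249 and 278 CPM in 3D induced, 258 and 294 CPM in 3D uninduced, 456 and 441 CPM in 2D induced, and 489 and 503 CPM in 2D uninduced cultures. Its log2 fold change in spheroids over flat cultures was −0.77 ± 0.11 with induction and −0.84 ± 0.11 without (edgeR adjusted p = 0.00334 and 0.00315), and gene counts do not separate p19Arf from p16. Mdm4 had 135 and 56.4 CPM in 3D induced, 94.7 and 79.1 CPM in 3D uninduced, 41.7 and 47.6 CPM in 2D induced, and 47.2 and 49.8 CPM in 2D uninduced cultures. With induction its log2 fold change over flat cultures was 1.09 ± 0.35 (edgeR adjusted p = 0.0494). This call was lost in most of the fits that left out 1 library, and the value was 0.33 without 3D induced replicate 1.

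Of 13 amino acid and unfolded protein stress genes, spheroids over flat cultures without induction called 0 higher and 4 lower, and induction in flat cultures called 2 higher and 1 lower. Induction in spheroids called 0. Of all tested genes, 9.44%, 4.52% and 0.911% were called in the same order of comparisons. The serine synthesis gene Phgdh had 91.4 and 77.0 CPM in 3D induced, 80.7 and 70.6 CPM in 3D uninduced, 123 and 123 CPM in 2D induced, and 177 and 160 CPM in 2D uninduced cultures. It fell by 1.16 ± 0.13 on the log2 scale in spheroids over flat cultures without induction (edgeR adjusted p = 0.00162). Atf5, a stress transcription factor gene, fell by 1.40 ± 0.17 there (edgeR adjusted p = 0.00212), and both calls were made in all 8 fits without 1 library. This is the comparison and the direction in which Sesn2 gave −0.65. Psat1, also of serine synthesis, rose by 1.11 ± 0.12 with induction in flat cultures (edgeR adjusted p = 0.00146), where Sesn2 gave −0.54. Without 2D uninduced replicate 2 the Psat1 value was 0.99.

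Of 9 tested relatives of the 10 genes, spheroids over flat cultures called 1 higher and 1 lower both with and without induction, and induction called 0 in either format. Of all tested genes, the comparison of formats called 12.4% with and 9.44% without induction. Induction called 0.911% in spheroids and 4.52% in flat cultures. The higher one was Phlda1, a relative of Phlda3, at 36.4 and 116 CPM in 3D induced, 72.2 and 81.3 CPM in 3D uninduced, 15.3 and 15.4 CPM in 2D induced, and 23.7 and 23.0 CPM in 2D uninduced cultures. The lower one was Eda. Zmat1 gave −0.84 ± 0.18 without induction (edgeR adjusted p = 0.0175). Phlda1 gave 2.32 ± 0.46 with induction and 1.71 ± 0.45 without (edgeR adjusted p = 0.00972 and 0.0324, at most 0.0793 and 0.173 with 1 library left out). Phlda3 itself gave −0.06 and −0.02 in the same comparisons.

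Proliferation genes were read beside Cdkn1a. Of 18 tested, induction in flat cultures called 3 higher, the cyclin E genes Ccne1 and Ccne2 and the ribonucleotide reductase gene Rrm2, with log2 fold changes of 1.35 ± 0.24, 1.27 ± 0.16 and 1.55 ± 0.32 (edgeR adjusted p = 0.0137, 0.00361 and 0.0241), all lost in at least 1 fit without 1 library. Induction in spheroids called 0 of 18, and spheroids over flat cultures called 2 lower with induction, Ccne1 and Rrm2, and 0 without. Both of these format calls were also lost in at least 1 fit without 1 library. Without 3D induced replicate 2 the Rrm2 value was −0.70. Of all tested genes, 4.52% were called for induction in flat cultures and 0.911% for induction in spheroids. The formats called 12.4% with induction and 9.44% without. Mki67, the only mitotic gene shown here, varied between replicates of spheroids. It had 78.6 and 18.5 CPM in 3D induced and 58.3 and 32.4 CPM in 3D uninduced spheroids. In flat cultures it had 54.5 and 48.2 CPM with induction and 44.6 and 48.1 CPM without. The 3D induced library with 18.5 CPM of Mki67 is the one with 351 CPM of Cdkn1a. It belongs to the pair of libraries that was the least alike, and a link between these genes was not tested. These are bulk samples, in which fewer cells of a type and less RNA per cell cannot be told apart.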

How the data were processed

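Per the labels' protocols, RNA of the 8 samples went into a directional library kit. The deposited file holds raw counts per Ensembl gene without normalization, as the whole numbers in its columns show. The submitters' processing notes list HISAT2 2.1.0, featureCounts 1.6.3, Trimmomatic 0.38, FastQC 0.11.7 and the build mm10. How strand was handled, and which gene annotation was counted, is not given in the sources used, so reads of genes that overlap may be split in either way. Each count column was matched to a sample through its name, which the sample's description gives, and replicate numbers are those of the titles.

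Further steps used edgeR 4.0.16, DESeq2 1.42.0 and limma 3.58.1 in R 4.3.3, and Python 3.11.15. Symbols, positions and exon lengths came from GENCODE vM21 on GRCm38, which matched 49326 of 49585 genes. Genes without a symbol held 0.0285% of the counts. Of all genes, 15255 passed filterByExpr at its minimum count of 10. Library sizes were scaled by TMM. The robust quasi-likelihood fit of edgeR used 1 mean per group, all 8 libraries and 4 residual degrees of freedom, with two-sided tests and Benjamini-Hochberg adjustment over all tested genes. Calls needed an adjusted p under 0.05 and at least 2-fold, the thresholds in the series description. The fit gives all groups 1 spread per gene, although 3D induced libraries varied more. The samples were prepared independently, per the series description, which does not say from how many cultures.

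Each of the 10 genes is given in every comparison. Up to 3 genes per list with the smallest adjusted p, the 5 genes most like Mdm2 and its tested neighbours are named too, and others are named after their values were seen. One gene that the rule names is not reported here. The genes and lists were chosen with earlier results of these data known. Alternatives were RLE scaling, DESeq2, limma-voom with group weights, no filter on low counts, the adjusted p alone, fits of 2 groups only, a replicate block, and leaving out each library. Rank and share of Mdm2 were recomputed with other denominators and per kilobase. The procedure was checked on simulated data. In their deviations from the group means, same-numbered libraries correlated by 0.206 between 3D uninduced and 3D induced. Between all other groups it was −0.00619 to 0.0265. The numbers are those of the titles, and the count columns of the 2D uninduced libraries carry other numbers, so this check cannot settle pairing. Replicate numbers were not taken as pairs.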

Additional observations from a re-analysis of the deposited data

Results flagged for a closer look

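Eda2r, the ectodysplasin A2 receptor gene, was the 1 gene of the 10 whose response to induction differed between spheroids and flat cultures by the edgeR test of that difference over all libraries. The log2 fold change with induction was 0.62 ± 0.14 in spheroids and −1.01 ± 0.14 in flat cultures, a difference of 1.64 ± 0.20 (SE, edgeR adjusted p = 0.0255 over 15255 genes). Its level was 41.6 and 45.6 CPM in 3D induced and 26.8 and 29.7 CPM in 3D uninduced spheroids, and 21.5 and 21.5 CPM in 2D induced and 47.9 and 38.8 CPM in 2D uninduced cultures. Both induced spheroid libraries were above both uninduced ones, and both induced flat libraries were below both uninduced ones. The summed adipocyte markers were 1037 to 2054 CPM in 3D induced and 70.3 to 78.7 CPM in 3D uninduced, and 5116 to 5574 CPM in 2D induced and 35.0 to 38.0 CPM in 2D uninduced cultures, and their part in the result was not tested. The adjusted p was between 0.131 and 0.229 when any 1 library of the 3D uninduced, 2D induced or 2D uninduced groups was left out, with a difference of 1.50 to 1.80. With a replicate block it was 0.0532, so the call was lost. Trp53inp1 was also called for this difference with DESeq2, limma-voom and no filter on low counts (adjusted p = 0.00296, 0.0442 and 6.05e-05), though not in the edgeR test over all libraries (adjusted p = 0.108).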

How the results depend on the processing

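None of the called log2 fold changes of the 10 genes changed sign under an alternative. Of all their recomputed values, 669 kept their side of the threshold, 8 passed it newly and 13 no longer passed. The number of the 10 genes called stayed within the reported count except as follows. With the adjusted p alone it was 4 for induction in flat cultures, and 6 without and 3 with induction for spheroids over flat cultures. For the difference of the inductions it was 2 with DESeq2, limma-voom and no filter on low counts, where Trp53inp1 joined Eda2r, and 0 with the replicate block (Eda2r adjusted p = 0.0532). Leaving out 1 library gave 0 to 1 for induction in flat cultures, 0 to 2 for induction in spheroids, 0 to 2 for spheroids over flat cultures with induction and 0 to 1 without, and 0 to 3 for the difference of the inductions. Over all tested genes the calls of these fits ranged from 223 to 1141, 24 to 1175, 880 to 2875, 561 to 2081 and 1 to 691 in the same order. The cause of these changes was not tested, and each fit without a library has 1 lone sample assumed to vary like the other groups. The mean Mdm2 share was 0.478% in 2D induced and 0.419% in 2D uninduced cultures over protein-coding genes, and 0.485% and 0.425% over TMM-scaled sizes, with the spheroid shares within 1 SD of the reported ones. Same-numbered libraries correlated by −0.00619 to 0.206 in their deviations from the group means, so the block rests on a shared number only, and it changed no other call of the 10 genes. A fit of 2 groups only was not possible for the difference of the inductions. No scaling moved the median of all genes by 0.1 on the log2 scale. With 2 libraries a group and 4 residual degrees of freedom, differences under 2-fold were often not resolved, and Gdf15, with 7 to 41 counts, is limited by depth.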
